A study of Homo sapiens with 8 samples.

Results

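The genes described here make sterols and fatty acids or control that synthesis. A list of 28 was drawn up by gene symbol, and each gene was represented by 1 probe set of the Affymetrix HG-U133 Plus 2.0 array, the one with the highest mean over all 8 arrays among probe sets annotated to that gene alone. Of the 28 genes, 26 had such a probe set, among 19775 genes with one on the array, and 25 were bright enough to be tested. Both probe sets of CYP51A1, lanosterol demethylase, carry a second gene symbol, and 1 further listed gene is not analysed here. MVD, mevalonate diphosphate decarboxylase, had a mean signal of 7.70, below the filter at a signal of 13.8, and ran from 1.67 to 14.9 over the arrays.

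The arrays compared 2 established human colon cancer lines, DKS-5, labelled K-ras mutant, and DKO-3, labelled K-ras knockout and wild-type. Cells of either line were kept at 21% O2, called normoxia here, or spent 12 h at 1% O2, called hypoxia, and every one of the 4 groups has 2 arrays. Each K-ras genotype is represented by 1 line, so genotype and other differences between the lines cannot be told apart. The labels do not say whether the 2 samples of a group were separate cultures, so the spread behind the p-values may be technical only. No agent other than the oxygen level is named.

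Cholesterol is built from acetyl units through the mevalonate pathway, which leads to squalene without using molecular oxygen. Squalene epoxidase (SQLE), lanosterol demethylase, the methylsterol oxidase MSMO1 and the lathosterol oxidase SC5D then each consume oxygen, as does the fatty acid desaturase SCD. The transcription factors SREBP-1 and SREBP-2, encoded by SREBF1 and SREBF2, switch on most of these genes when SCAP carries them out of the endoplasmic reticulum, and INSIG1 and INSIG2 hold SCAP back when sterols are plentiful. INSIG1 is itself a target of the SREBPs, and INSIG2 is also known as a hypoxia-inducible gene.

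Over both lines 3 of the 25 tested genes rose in hypoxia, against 1.14% of all tested genes. They were INSIG1, INSIG2 and LSS, the cyclase that makes lanosterol. The 3 oxygen-using sterol enzymes measured, SC5D, SQLE and MSMO1, were higher in DKS-5 than in DKO-3 under hypoxia, as was INSIG1, against 1.39% of all tested genes that were higher. Of these 4 line differences SC5D alone passed without scaling of the arrays or with a measure of RNA quality as a covariate, a measure that differed between the groups, and the probe sets of SQLE disagreed. The 250 bases upstream of the RefSeq start of these genes, SQLE left out, are shown first. They were searched for letters that the SREBPs' partner NF-Y and the hypoxia-inducible factors are known to bind, and not every window holds both. The windows come from RefSeq on GRCh38.p14, read 5′ to 3′ on the gene's own strand and lie before the transcript. The INSIG1 stretch is chr7:155297628-155297877 (plus strand), that of INSIG2 chr2:118088221-118088470 (plus), that of LSS chr21:46228775-46229024 (minus), that of MSMO1 chr4:165327419-165327668 (plus) and that of SC5D chr11:121292521-121292770 (plus). Capitals mark the NF-Y box CCAAT, a hypoxia response element core with either of 2 starts (ACGTG, and its variant GCGTG) and a sterol response element-like stretch, TCACNCCAC, each on either strand. Letters found on the opposite strand appear as their reverse complement.
INSIG1: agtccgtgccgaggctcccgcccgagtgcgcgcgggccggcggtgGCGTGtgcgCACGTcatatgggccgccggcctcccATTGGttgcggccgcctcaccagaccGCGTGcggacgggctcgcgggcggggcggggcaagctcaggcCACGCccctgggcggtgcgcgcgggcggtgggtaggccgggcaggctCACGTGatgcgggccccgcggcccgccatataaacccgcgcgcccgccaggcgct
INSIG2: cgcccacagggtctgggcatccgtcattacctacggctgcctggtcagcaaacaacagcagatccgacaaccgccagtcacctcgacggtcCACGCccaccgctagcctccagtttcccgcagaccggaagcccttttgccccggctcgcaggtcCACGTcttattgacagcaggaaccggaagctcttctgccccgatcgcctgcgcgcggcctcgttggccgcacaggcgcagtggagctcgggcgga
LSS: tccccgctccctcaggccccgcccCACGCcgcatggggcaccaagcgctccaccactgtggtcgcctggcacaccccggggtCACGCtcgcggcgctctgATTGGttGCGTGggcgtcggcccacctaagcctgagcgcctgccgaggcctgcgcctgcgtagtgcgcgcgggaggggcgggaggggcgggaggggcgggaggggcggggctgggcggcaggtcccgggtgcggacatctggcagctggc
MSMO1: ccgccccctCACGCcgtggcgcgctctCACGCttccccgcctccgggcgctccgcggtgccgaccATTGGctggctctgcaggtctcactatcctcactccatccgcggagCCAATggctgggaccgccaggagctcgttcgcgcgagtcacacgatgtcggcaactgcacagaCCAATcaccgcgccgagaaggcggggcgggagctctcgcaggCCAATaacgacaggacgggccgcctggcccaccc
SC5D: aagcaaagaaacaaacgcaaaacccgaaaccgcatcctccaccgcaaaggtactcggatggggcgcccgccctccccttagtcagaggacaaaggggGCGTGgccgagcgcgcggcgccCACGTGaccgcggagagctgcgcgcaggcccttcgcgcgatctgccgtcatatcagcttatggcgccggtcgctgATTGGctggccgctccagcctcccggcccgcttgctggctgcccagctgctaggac

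MSMO1 holds 4 NF-Y boxes in this window, INSIG1, LSS and SC5D hold 1 each, and the INSIG2 window has no such letters. INSIG1 and SC5D each hold the palindrome CACGTG, which contains ACGTG on both strands. RefSeq entries were matched for 22 of the 25 tested genes, all but ACAT2, SQLE and FASN, and CCAAT was found in 16 of the 22, against 33.0% of all 27305 promoters in the table and 35.1% of those of 10345 tested genes. GCGTG was found in 18 of 22, against 31.9% of all promoters and 44.6% of those of tested genes. ACGTG was found in 5 of 22 (INSIG1, INSIG2, SC5D, SCAP and STARD4), against 18.7% and 23.4%. TCACNCCAC was found in 1 of 22, SREBF2, against 0.875% and 0.841%. A match of letters describes the window and does not show that a factor binds there.

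The first question was how 12 h of hypoxia changed these genes in each line. Differences are given on the log2(signal + 16) scale, which understates the change of dim genes, with their standard errors, and p-values are from limma with Benjamini-Hochberg adjustment over all 12735 genes tested. In DKS-5, 1 of the 25 genes rose, INSIG2, and 0 fell, against 0.503% of all tested genes that passed the threshold of 0.05. In DKO-3, 0 of 25 passed in limma, against 0.346% of all genes, and 9 had an unadjusted p under 0.05, all higher in hypoxia, against 7.84% of all genes. In DKS-5, 12 of 25 had an unadjusted p under 0.05, all higher, against 4.47%. The mean response of both lines called 3 of 25 higher and 0 lower, against 1.14% of all genes higher and 0.055% lower (1.19% in all). Over both lines 14 of 25 had an unadjusted p under 0.05, all higher, against 9.77%. In RNA of whole cultures, a change in the makeup of the cells and a change of RNA per cell cannot be told apart. By sign alone, 21 of 25 values were above 0 in DKS-5 (53.4% of all genes), 22 in DKO-3 (54.4%) and 24 in the mean of the lines (54.8%).

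The median log2 difference of the 25 genes was 0.43 in DKS-5, 0.48 in DKO-3 and 0.44 over both lines, beside 0.02, 0.04 and 0.03 for all tested genes. Both hypoxia arrays lay above both normoxia arrays for 17 of 25 genes in DKS-5, against 19.9% of all genes, and for 14 of 25 in DKO-3, against 25%. The SD of the log2 difference between the 2 arrays of a group ran from 0.309 to 0.465 over all genes. Without scaling of the arrays the median of all genes moved to -0.19 in DKS-5 and 0.20 in DKO-3, and the median of the 25 genes to 0.20 and 0.64. The median of the 25 genes was thus above that of all genes in both lines with and without scaling, while 4 of the 25 values lay below 0 in DKS-5 and 3 in DKO-3.

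**Figure D1:**
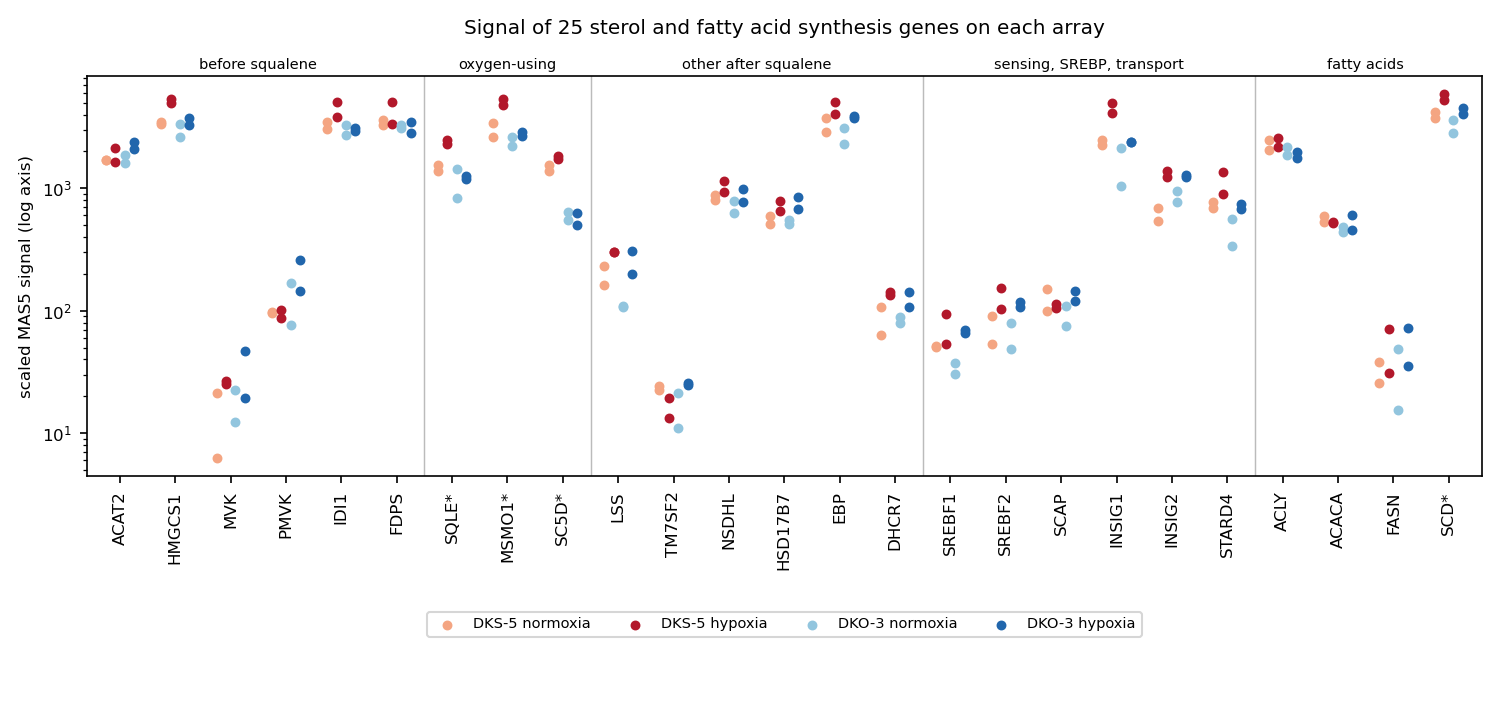
Scaled signal (log axis) of the 25 tested genes on each of the 8 arrays, 1 point per array, coloured by line and oxygen level and grouped by role, with asterisks on oxygen-using enzymes. INSIG2 reads 543 and 689 on the normoxic DKS-5 arrays and 1376 and 1248 in hypoxia, and SC5D lies at 504 to 638 on every DKO-3 array and at 1380 to 1826 on every DKS-5 array.

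The sterol sensors and regulators gave the highest median log2 difference of the roles, 0.67 over both lines for 6 genes, of which 2 rose. INSIG2 (probe set 209566_at) read 543 and 689 on the normoxic DKS-5 arrays against 1376 and 1248 in hypoxia, and 953 and 770 on the normoxic DKO-3 arrays against 1233 and 1275 in hypoxia. All hypoxia arrays lay above all normoxia arrays, also across the lines. Its log2 difference in DKS-5 was 1.08 ± 0.20 (2.11-fold, limma adjusted p = 0.0221), that in DKO-3 was 0.54 ± 0.20 (adjusted p = 0.39), and the mean of the lines was 0.81 ± 0.14 (1.75-fold, adjusted p = 0.00837). The mean call ended without the first DKS-5 normoxia array (adjusted p = 0.0889) or the first DKO-3 hypoxia array (0.0545). The DKS-5 call ended without either DKS-5 normoxia array (0.603 and 0.0818), the second DKS-5 hypoxia array (0.0513) or the first DKO-3 hypoxia array (0.0503), and, with the 4 DKS-5 arrays fitted alone, the adjusted p was 0.132. That call also ended without the filter (0.075) and without scaling (0.235).

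INSIG1 (201626_at) read 2476 and 2273 on the normoxic DKS-5 arrays against 4163 and 4987 in hypoxia. In DKO-3 it read 2116 and 1050 in normoxia against 2373 and 2386 in hypoxia, so the groups did not overlap in either line, and the second normoxia array stood well below the first. The mean log2 difference of the lines was 0.80 ± 0.17 (1.74-fold, limma adjusted p = 0.0284), with 0.94 ± 0.24 in DKS-5 (adjusted p = 0.186) and 0.67 ± 0.24 in DKO-3 (0.365). Its other probe sets, 201627_s_at and 201625_s_at, gave log2 differences of 1.44 and 1.40 over both lines. The call held without the first DKS-5 hypoxia array (adjusted p = 0.012) or the first DKO-3 normoxia array (0.00114), and leaving out each of the other 6 arrays ended it, with adjusted p from 0.0677 to 0.152. It also ended without the filter (0.203) and without scaling (0.0764).

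The other 4 regulators did not pass the test. SREBF2 (201247_at) read 53.7 and 90.6 on the normoxic DKS-5 arrays and 104 and 152 in hypoxia, then 49.0 and 78.7 on the normoxic DKO-3 arrays and 108 and 118 in hypoxia. Neither line's groups overlapped, and the mean log2 difference was 0.72 ± 0.21 (limma adjusted p = 0.121). The other SREBF2 probe sets gave 0.26 and 0.29 over both lines, with 0.02 and 0.12 in DKS-5 and 0.50 and 0.45 in DKO-3. SREBF1 (202308_at) read 50.3 and 51.6 on the normoxic DKS-5 arrays and 53.5 and 93.4 in hypoxia, then 30.4 and 37.7 on the normoxic DKO-3 arrays and 70.0 and 65.2 in hypoxia, a mean log2 difference of 0.56 ± 0.19 (adjusted p = 0.191), and the groups were apart in both lines although the first hypoxic DKS-5 array lay close to normoxia. STARD4, which carries cholesterol between membranes, had a mean log2 difference of 0.63 (adjusted p = 0.133) with no overlap in either line. SCAP, the escort of the SREBPs, read 98.6 and 149 on the normoxic DKS-5 arrays and 106 and 113 in hypoxia, within the same range. On the DKO-3 arrays it read 74.9 and 110 in normoxia and 121 and 145 in hypoxia, with the groups apart. The log2 difference of SCAP was -0.13 in DKS-5 and 0.48 in DKO-3, and the mean of the lines was 0.17 (adjusted p = 0.732).

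Of the 6 tested enzymes before squalene, 0 passed in limma over both lines, and 2 had an unadjusted p under 0.05. Their median log2 difference was 0.29. HMGCS1, which makes HMG-CoA, read 3500 and 3347 on the normoxic DKS-5 arrays and 5373 and 4941 in hypoxia, then 3382 and 2622 on the normoxic DKO-3 arrays and 3774 and 3266 in hypoxia. The DKS-5 groups were apart and the DKO-3 groups overlapped, with a mean log2 difference of 0.41 ± 0.11 (adjusted p = 0.102). The other HMGCS1 probe set, 205822_s_at, gave 0.81 in DKS-5, 0.66 in DKO-3 and 0.73 over both lines, with the groups apart in both. MVK, mevalonate kinase, was dim, with 6.22 and 21.1 on the normoxic DKS-5 arrays, 26.8 and 25.2 in hypoxia, 22.3 and 12.3 on the normoxic DKO-3 arrays and 47.2 and 19.2 in hypoxia (mean log2 difference 0.53 ± 0.22, adjusted p = 0.296). The acetoacetyl-CoA thiolase ACAT2 had 0.25, the kinase PMVK 0.32, the isomerase IDI1 0.22 and FDPS, which makes farnesyl diphosphate, 0.11, with adjusted p from 0.385 to 0.747. PMVK had a log2 difference of -0.05 in DKS-5 and its DKO-3 normoxia arrays, 76.4 and 169, lay further apart than those of any DKS-5 group.

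Of the 3 oxygen-using enzymes after squalene, 0 passed for hypoxia in limma, and 2 had an unadjusted p under 0.05 over both lines. SQLE (209218_at) read 1384 and 1554 on the normoxic DKS-5 arrays and 2323 and 2481 in hypoxia, then 1428 and 832 on the normoxic DKO-3 arrays and 1202 and 1250 in hypoxia. Both DKS-5 hypoxia arrays were the highest of the 8, and the DKO-3 groups overlapped. The log2 difference was 0.70 ± 0.22 in DKS-5 (adjusted p = 0.45) and 0.17 ± 0.22 in DKO-3 (0.843). The other SQLE probe sets, from the brightest to the dimmest, gave 0.46, 0.35 and 0.15 in DKS-5 and 0.68, 1.02 and 0.03 in DKO-3. MSMO1 (209146_at) read 2632 and 3415 on the normoxic DKS-5 arrays and 4834 and 5358 in hypoxia, then 2650 and 2228 on the normoxic DKO-3 arrays and 2672 and 2886 in hypoxia. Its log2 difference was 0.76 ± 0.17 in DKS-5 (adjusted p = 0.0725) and 0.19 ± 0.17 in DKO-3 (0.727). SC5D (211423_s_at) read 1380 and 1554 on the normoxic DKS-5 arrays and 1826 and 1748 in hypoxia, then 638 and 548 on the normoxic DKO-3 arrays and 504 and 628 in hypoxia. That is a log2 difference of 0.28 ± 0.20 in DKS-5 (adjusted p = 0.85) and -0.07 ± 0.20 in DKO-3 (0.941). The other SC5D probe set, 215064_at, gave 0.03 in DKS-5 and 0.45 in DKO-3.

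Among the other 6 enzymes after squalene 1 rose, LSS, and the median over both lines was 0.46. LSS (202245_at) read 161 and 231 on the normoxic DKS-5 arrays against 300 and 304 in hypoxia. In DKO-3 it read 110 and 108 in normoxia against 305 and 200 in hypoxia, so the groups were apart in both lines. The mean log2 difference was 0.84 ± 0.19 (1.79-fold, limma adjusted p = 0.0368), with 0.61 in DKS-5 (0.67) and 1.07 in DKO-3 (0.146), and its other probe sets gave 0.52 and 0.30. Leaving out any of 5 arrays ended the call, both DKO-3 normoxia arrays (adjusted p = 0.124 and 0.0815), the first DKO-3 hypoxia array (0.234), the first DKS-5 normoxia array (0.254) and the second DKS-5 hypoxia array (0.0836). It also ended without the filter (0.141), without scaling (0.082), with quantile normalization (0.0517), with probe sets averaged (0.144) and with the RNA quality covariate (0.24).

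EBP, the sterol isomerase, read 2898 and 3755 on the normoxic DKS-5 arrays against 5104 and 4016 in hypoxia, and 2282 and 3125 on the normoxic DKO-3 arrays against 3779 and 3896 in hypoxia. No groups overlapped within a line, and the mean log2 difference was 0.49 ± 0.13 (limma adjusted p = 0.0977). Its other probe sets above the filter gave 0.85 and 0.71. DHCR7, the reductase of the last step, had a mean log2 difference of 0.56 (adjusted p = 0.198), the dehydrogenase NSDHL 0.30 (0.391) and the ketosteroid reductase HSD17B7 0.44 (0.207). The HSD17B7 probe set is of a class, marked x_at, that can share probes with other transcripts, and the gene has a near-identical pseudogene, so its value is uncertain. The IDI1 probe sets 208881_x_at, which represents that gene, and 204615_x_at are of the same class. The sterol reductase TM7SF2 was dim, between 11.1 and 25.5, and was 0.04 over both lines (0.944).

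Fatty acid synthesis gave 0 passes of 4 genes in limma, 1 unadjusted p under 0.05 and a median of 0.25. SCD (200832_s_at), the oxygen-using stearoyl-CoA desaturase, read 3788 and 4192 on the normoxic DKS-5 arrays against 5238 and 5860 in hypoxia, and 3620 and 2854 on the normoxic DKO-3 arrays against 4550 and 4083 in hypoxia. Its groups were apart in both lines, with a mean log2 difference of 0.45 ± 0.11 (adjusted p = 0.0646), and its other probe sets gave 0.98, 0.86 and 1.26. FASN, the fatty acid synthase, read 25.7 and 37.7 on the normoxic DKS-5 arrays, 30.8 and 70.8 in hypoxia, 15.4 and 48.6 on the normoxic DKO-3 arrays and 35.5 and 71.9 in hypoxia. The FASN groups overlapped in both lines, and the mean log2 difference was 0.50 ± 0.26 (adjusted p = 0.403). ACLY, which supplies cytosolic acetyl-CoA, was -0.03 and ACACA, acetyl-CoA carboxylase, was 0.05, with adjusted p of 0.94 and 0.915.

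**Figure D2:**
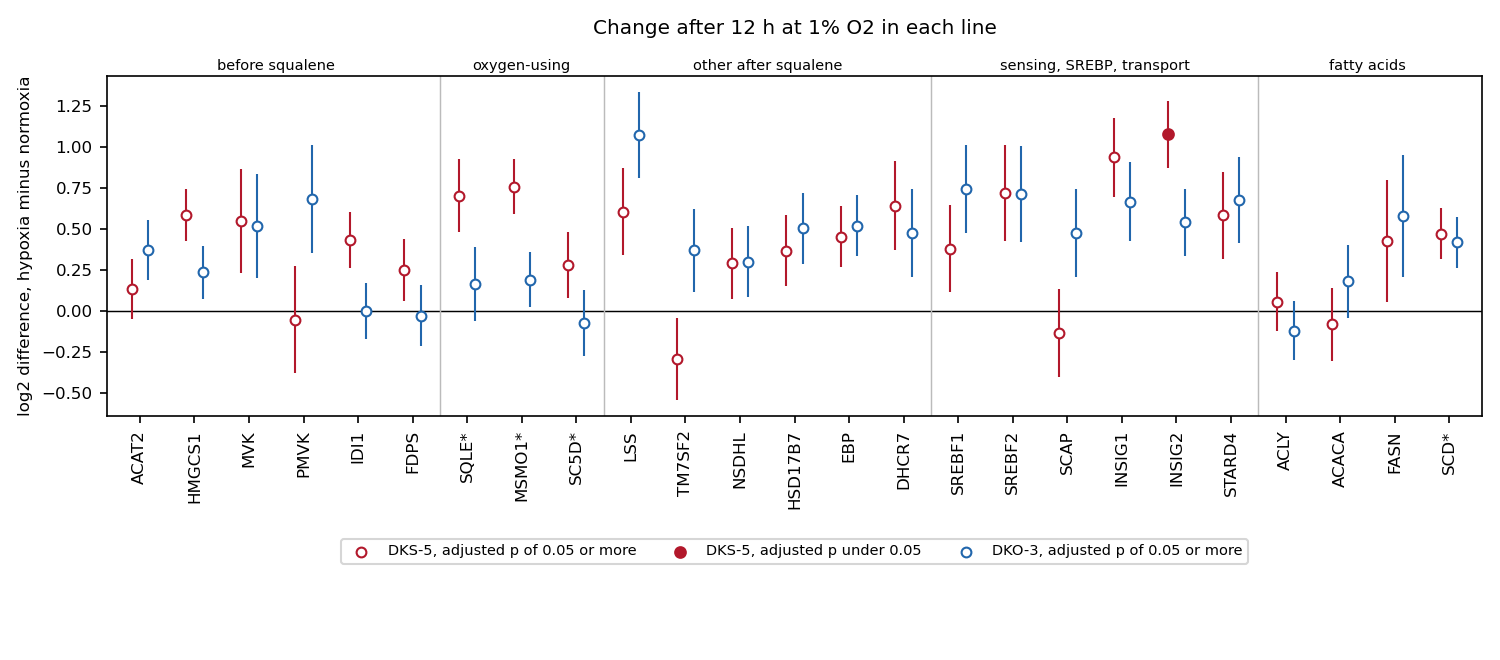
Hypoxia minus normoxia in each line on the log2(signal + 16) scale for the 25 tested genes by role, with bars of 1 standard error, filled where the adjusted p is under 0.05 and asterisks on oxygen-using enzymes. INSIG2 in DKS-5 is the only filled point at 1.08, and SQLE, MSMO1 and SC5D lie at 0.70, 0.76 and 0.28 in DKS-5 and at 0.17, 0.19 and -0.07 in DKO-3. Each gene is shown by its representing probe set only.

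Whether the lines responded differently was tested with the interaction, the DKS-5 response minus the DKO-3 response. In limma 0 of 25 genes and 0 of 12735 genes (0%) passed, and at an unadjusted p under 0.05 there was 1 of the 25, MSMO1, on the higher side, against 139 genes higher (1.09%) and 194 lower of all. The log2 difference of the responses was 0.57 ± 0.24 for MSMO1 (unadjusted p = 0.0299), 0.54 ± 0.32 for SQLE, 0.54 ± 0.29 for INSIG2 and 0.35 ± 0.28 for SC5D. The other probe sets of SQLE gave -0.23, -0.67 and 0.12, and that of SC5D gave -0.42. The median of the 25 was 0.01, with 13 above 0 (48% of all genes). In the simulation 6% of 2-fold interactions were recovered, so a difference of that size could be missed.

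The oxygen-using enzymes were also set against the enzymes before squalene within each array, as the mean log2 of SQLE, MSMO1 and SC5D minus the mean log2 of the 7 measured earlier enzymes, MVD included. Because probe sets differ in brightness, this contrast was centred on its mean over the 8 arrays, and it is a description with no test. It was 0.19 and 0.43 on the normoxic DKS-5 arrays, 0.46 and 0.70 on the hypoxic DKS-5 arrays, -0.17 and -0.53 on the normoxic DKO-3 arrays and -0.73 and -0.34 on the hypoxic DKO-3 arrays. All DKS-5 arrays lay above all DKO-3 arrays, the DKS-5 oxygen groups did not overlap and the DKO-3 oxygen groups did. The contrast was 0.27 higher in hypoxia in DKS-5 and differed by -0.18 in DKO-3, beside a within-group SD of 0.222.

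Between the lines the contrast differed by 0.66 in normoxia and 1.11 in hypoxia, and the responses differed by 0.45. The change in DKS-5 was 0.15 without the first DKS-5 normoxia array, 0.15 without the second DKS-5 hypoxia array and 0.09 with a pseudocount of 1. The change in DKO-3 was 0.01 without the first DKO-3 hypoxia array and -0.01 without the first DKO-3 normoxia array, and the difference of the responses was then 0.26 and 0.28. With all probe sets of a gene averaged, the difference of the responses was 0.22. Without SC5D, an alternative chosen after the data were seen, the lines differed by 0.35 in normoxia and 0.87 in hypoxia, and the responses by 0.52. The 6 enzymes after squalene that use no oxygen, set against the earlier enzymes in the same way, averaged -0.50 ± 0.22 (SD, n = 2) on the normoxic DKS-5 arrays, -0.46 ± 0.05 on the hypoxic DKS-5 arrays, -0.76 ± 0.18 on the normoxic DKO-3 arrays and -0.50 ± 0.02 on the hypoxic DKO-3 arrays, uncentred.

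**Figure D3:**
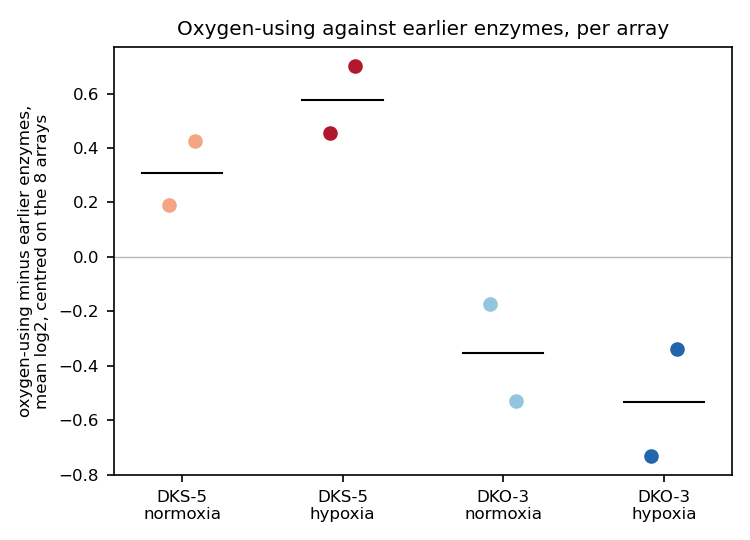
Mean log2 of SQLE, MSMO1 and SC5D minus the mean log2 of the enzymes before squalene on each array (points), centred on the 8 arrays, with the mean of the 2 arrays of each group as a line. The DKS-5 arrays lie between 0.19 and 0.70 and the DKO-3 arrays between -0.73 and -0.17.

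DKS-5 and DKO-3 were then compared at each oxygen level. In normoxia 1 of the 25 genes was higher in DKS-5, SC5D, and 0 were lower, against 2.54% of all tested genes past the threshold (0.707% higher and 1.84% lower). In hypoxia 4 were higher, SC5D, SQLE, MSMO1 and INSIG1, and 0 were lower, against 4.37% of all genes (1.39% higher and 2.98% lower). The median of the 25 was 0.26 in normoxia and 0.24 in hypoxia, beside 0.01 and -0.03 for all genes, with 20 and 18 values above 0 (50.8% and 46.2% of all genes). Both DKS-5 arrays lay above both DKO-3 arrays for 10 of 25 genes in normoxia (21.5% of all genes) and for 10 in hypoxia (19%). Below lay 1 in normoxia, INSIG2 (22.2%), and 3 in hypoxia, PMVK, TM7SF2 and SCAP (25.9%). The 6 tested enzymes before squalene gave 0 passes in hypoxia. Their line differences there were 0.55 for HMGCS1 and IDI1, 0.39 for FDPS, -0.17 for MVK, -0.27 for ACAT2 and -0.94 for PMVK.

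SC5D, the desaturase of the late pathway, was 1.29 ± 0.20 log2 units higher in DKS-5 in normoxia (2.44-fold, limma adjusted p = 0.0018) and 1.64 ± 0.20 higher in hypoxia (3.12-fold, adjusted p = 0.000218). All 4 DKS-5 arrays lay above all 4 DKO-3 arrays, and a second probe set, 215064_at, gave 2.17 and 1.75. Leaving out the second DKS-5 normoxia array ended the normoxia call (adjusted p = 0.0564), and leaving out any of the 8 arrays kept the hypoxia call.

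MSMO1 was 0.87 ± 0.17 log2 units higher in DKS-5 under hypoxia (1.83-fold, limma adjusted p = 0.00773), and in normoxia the difference was 0.30 ± 0.17 with overlapping arrays (0.574). Its call ended without the first DKO-3 hypoxia array (adjusted p = 0.108). SQLE was 0.96 ± 0.22 log2 units higher under hypoxia (1.95-fold, adjusted p = 0.0242), and in normoxia the difference was 0.42 ± 0.22 (0.535). The SQLE call ended without the second DKS-5 hypoxia array (0.0623), the first DKO-3 hypoxia array (0.197) or the second (0.0943). Its other probe sets, from the brightest to the dimmest, gave 0.15, -0.27 and 0.65 under hypoxia, so the probe sets of SQLE disagree, and with its probe sets averaged the adjusted p was 0.256. Without the filter the SQLE p was 0.0919. INSIG1 was 0.93 ± 0.24 log2 units higher under hypoxia (1.91-fold, adjusted p = 0.0407), with other probe sets at 0.97 and 0.33, and leaving out any of 5 arrays, both DKS-5 normoxia arrays, the second DKS-5 hypoxia array and both DKO-3 hypoxia arrays, ended that call (0.0579 to 0.258). It also ended with a pseudocount of 1 (0.0509), without the filter (0.154), with quantile normalization (0.106) and with probe sets averaged (0.114).

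A measure of RNA quality differed between these groups. The ratio of 3′ to 5′ signal of ACTB, which is higher where RNA is degraded or short, was 11.47 and 11.02 on the hypoxic DKO-3 arrays, 54.8 and 25.6 on the hypoxic DKS-5 arrays, 55.1 and 34.3 on the normoxic DKS-5 arrays and 49.0 and 14.9 on the normoxic DKO-3 arrays. With the log2 of the ratio as a covariate, the hypoxia log2 line differences were 1.53 for SC5D (limma adjusted p = 0.0362), 0.87 for MSMO1 (0.167), 0.55 for SQLE (0.499) and 0.36 for INSIG1 (0.693). The median hypoxia response of the 25 genes with the covariate was 0.39 over both lines, 0.42 in DKS-5 and 0.34 in DKO-3. In the same order, it was 0.44, 0.43 and 0.48 without the covariate. Without scaling of the arrays the median of all genes in the hypoxia line comparison moved to -0.42 and that of the 25 genes to -0.22, and SC5D alone of the 4 passed (1.19, adjusted p = 0.00312), while ACAT2 and PMVK passed as lower in DKS-5. The calls of that comparison then split into 63 higher and 2320 lower, beside 177 and 380 with scaling.

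**Figure D4:**
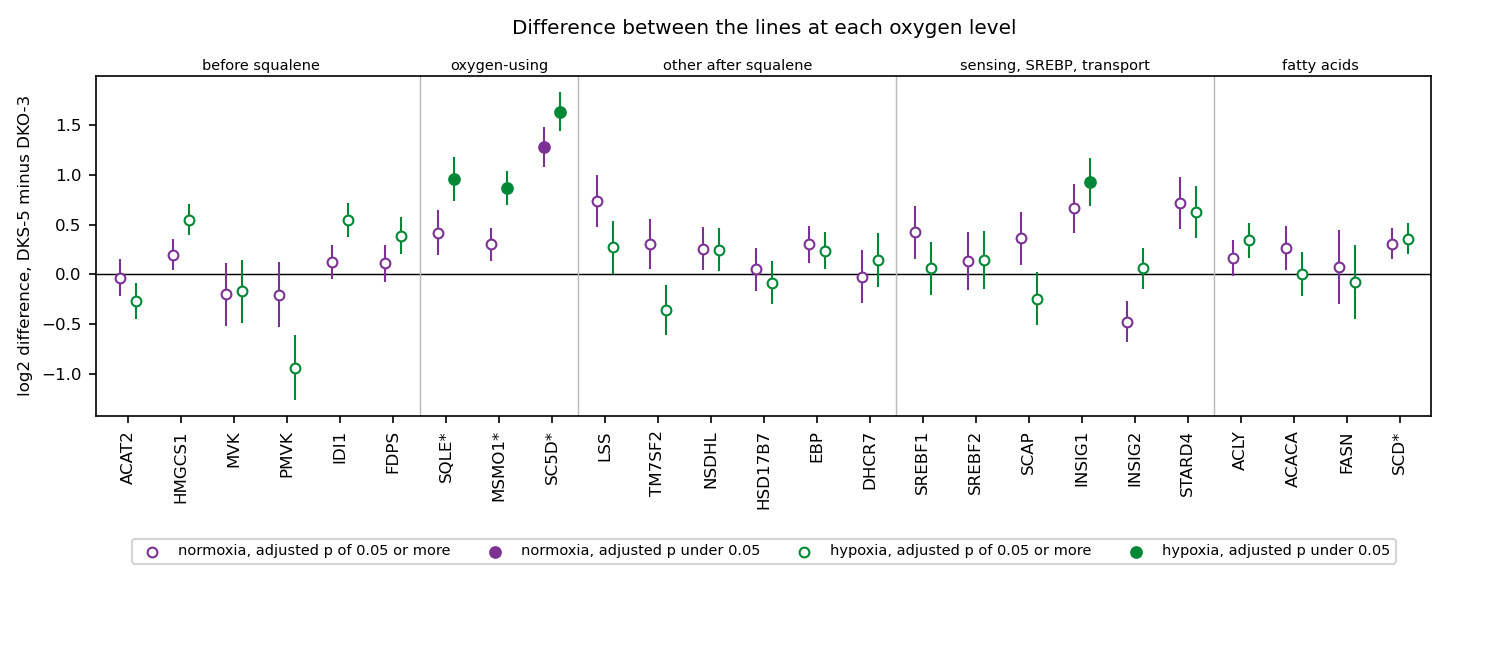
DKS-5 minus DKO-3 on the log2(signal + 16) scale in normoxia and hypoxia for the 25 tested genes by role, with bars of 1 standard error, filled where the adjusted p is under 0.05 and asterisks on oxygen-using enzymes. SC5D is filled at both oxygen levels at 1.29 and 1.64, and SQLE, MSMO1 and INSIG1 are filled in hypoxia at 0.96, 0.87 and 0.93.

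The 26 genes had 56 probe sets, of which 52 were above the filter and 27 of these were not used to represent their gene. Those 27 had a median log2 hypoxia difference of 0.46 over both lines, with 25 above 0. For the hypoxia line difference 14 of the 27 were above 0, with a median of 0.02, and for the interaction 6 of 27 were above 0, with a median of -0.23. The representing probe sets had medians of 0.24 and 0.01 in these comparisons. The share above 0 among all probe sets that do not represent a gene was not taken. With the probe sets of each gene averaged, the median of all genes was 0.04 for the hypoxia difference over both lines. It was -0.08 for the hypoxia line difference and -0.06 for the interaction.

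**Figure D5:**
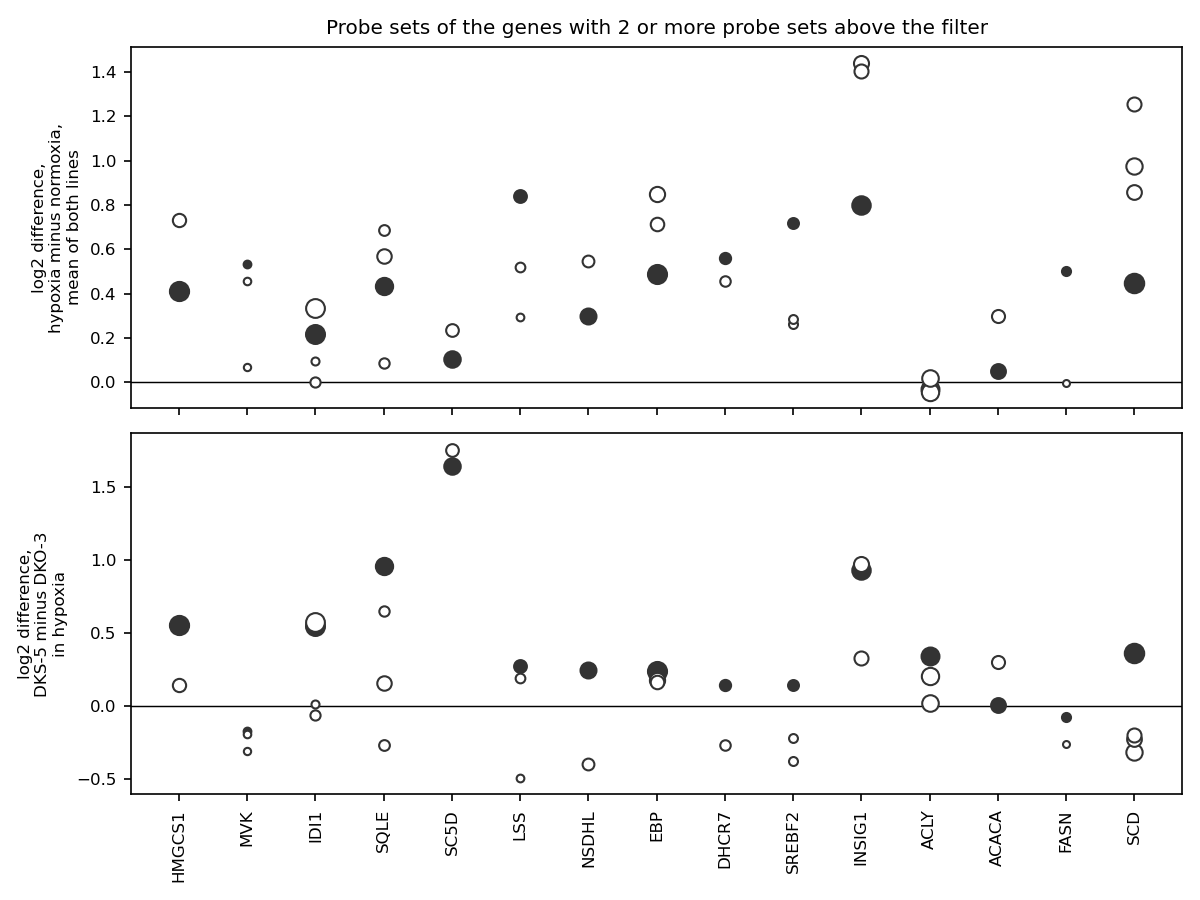
Probe sets above the filter of the genes with 2 or more of them, as hypoxia minus normoxia over both lines (upper panel) and DKS-5 minus DKO-3 in hypoxia (lower panel), in log2 units. Filled circles mark the probe set that represents the gene and larger circles a higher mean signal, and SQLE lies at 0.96 on the filled circle and at 0.15, -0.27 and 0.65 on the open ones in the lower panel.

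A second list of 34 genes around these pathways was set beside them, of which 27 were measured and 24 tested. Over both lines 2 of the 24 rose in hypoxia and 0 fell, against 1.14% and 0.055% of all tested genes, with a median log2 difference of -0.01 and 11 values above 0 (54.8% of all genes). ERG28, a scaffold of the sterol demethylation complex, read 858 and 993 on the normoxic DKS-5 arrays against 1248 and 1845 in hypoxia, and 729 and 833 on the normoxic DKO-3 arrays against 1415 and 1377 in hypoxia. No groups overlapped within a line, and the mean log2 difference was 0.77 ± 0.15 (limma adjusted p = 0.0158). ACSS2, which makes acetyl-CoA from acetate, read 75.9 and 68.2 against 143 and 163 in DKS-5 and 95.4 and 62.5 against 160 and 124 in DKO-3, a mean log2 difference of 0.84 ± 0.18 (adjusted p = 0.0341). Leaving out 1 array at a time ended the ERG28 call for 4 of 8 arrays (adjusted p up to 0.121) and the ACSS2 call for 6 of 8 (up to 0.204). The ERG28 call also ended with probe sets averaged (a log2 difference of 0.44, adjusted p = 0.146), with the RNA quality covariate (0.262), without the filter (0.0739) and without scaling (0.0572), and its other probe sets gave 0.40 and 0.14. The ACSS2 call also ended without the filter (0.156), without scaling (0.0823), with quantile normalization (0.0572) and with the covariate (0.0683).

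SREBP processing and sterol-regulated degradation gave 0 passes of 5 in limma and a median of -0.04, with the proteases MBTPS1 and MBTPS2 at -0.26 and -0.04. Sterol uptake, storage and export gave 0 passes of 6 and a median of 0.08, with the sterol sensor NR1H3 at 0.59 (adjusted p = 0.168). Further fatty acid genes gave 1 pass of 9, ACSS2, and a median of 0.00, and further sterol genes gave 1 of 4, ERG28, and a median of -0.06. Between the lines in hypoxia 1 of the 24 was higher in DKS-5 and 0 were lower, against 1.39% and 2.98% of all tested genes. It was the elongase ELOVL6, at 2983 and 2547 against 1895 and 1647 in DKO-3 (0.64 ± 0.17, adjusted p = 0.0454). That call ended on leaving out 7 of the 8 arrays, the first DKO-3 hypoxia array among them (0.145), and held in 1 of 8. It also ended without scaling (a log2 difference of 0.18, adjusted p = 0.442), with a pseudocount of 1 (0.0506), without the filter (0.103), with quantile normalization (0.103), with the RNA quality covariate (0.313) and with only the 4 arrays compared (0.156).

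Across the series, the 2% trimmed mean of the deposited signal ran from 132.5 to 201.0 before scaling. NDRG1, a hypoxia-inducible gene, read 132 and 127 on the normoxic DKS-5 arrays against 1996 and 2097 in hypoxia, and 413 and 342 on the normoxic DKO-3 arrays against 2007 and 1932 in hypoxia, which matches the oxygen labels. Of 10 colon epithelium markers 8 were above the filter, among them EPCAM and CDH1, while CDX1 and LGALS4 were below it. Some of these markers moved with the line or with hypoxia, and their part in the differences above was not tested. KRT20 was lower in DKS-5, by log2 differences of -4.09 in normoxia and -3.92 in hypoxia (limma adjusted p = 5.15e-07 and 9.53e-07), and VIL1 was higher there, by 1.77 and 1.53 (0.000917 and 0.00246). KRT19 rose in hypoxia over both lines by 1.20 (adjusted p = 0.00119) and was lower in DKS-5 in normoxia (-1.04, adjusted p = 0.0312). The summed signal of the 10 ran from 16706 to 17923 on the normoxic DKS-5 arrays, 19225 to 21553 on the hypoxic DKS-5 arrays, 17427 to 19259 on the normoxic DKO-3 arrays and 18905 to 20355 on the hypoxic DKO-3 arrays. Of 12 markers of other cells 3 (COL1A1, HBB and DES) were above it, and the summed signal of the 12 ran from 71.6 to 157 over the arrays.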

How the data were processed

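The deposited values were linear probe set intensities of 8 Affymetrix HG-U133 Plus 2.0 arrays. Per the submitters' processing notes they come from MAS5, with version and target intensity not given in the sources used here. Per the labels' protocols, biotin-labelled cDNA was made from total RNA by NuGEN Ovation V2 amplification. Each array was scaled to the median 2% trimmed mean of 172.1, because trimmed means differed by 1.52-fold, above a tolerance of 10%, and values were taken as log2(signal + 16). Of 54675 probe sets, 41091 carried 1 gene symbol, 1801 several and 11721 none, besides 62 controls, and 41037 matched RefSeq (GRCh38.p14). Each gene took its brightest probe set, and genes were tested if their mean exceeded that of 40% of probe sets (signal 13.8). limma 3.58.1 in R 4.3.3 (1 mean per group, 4 residual and 11.3 prior degrees of freedom, eBayes with trend) gave two-sided p-values. Genes and lists were chosen with earlier results of these data known. Array values were given for genes past the threshold, the oxygen-using enzymes, SREBF1, SREBF2 and the 2 smallest pooled p of each role, with others by range or difference. In simulations on 12735 genes with 200 changed, 2-fold changes were recovered at 27% for hypoxia in DKS-5, 33% in DKO-3, 73% over both lines, 33% for the lines in normoxia and 38% in hypoxia. The changed genes were a mix of 2-fold and 4-fold changes. For hypoxia the simulations called 121 genes in DKS-5, 135 in DKO-3 and 178 over both lines, beside 64, 44 and 152 in the data. They called 123 for the lines in normoxia, 131 in hypoxia and 70 for the interaction, beside 324, 557 and 0. The Benjamini-Hochberg threshold eases with more calls, so recovery in the data can differ from these shares. The number of arrays limits the precision. Alternatives were the pseudocount, the filter, the scaling, quantile normalization, the mean of all probe sets, an RNA quality covariate, a replicate block, fits of the 4 arrays of a comparison alone and leaving out each array.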

Additional observations from a re-analysis of the deposited data

Results flagged for a closer look

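TM7SF2, a sterol reductase after squalene, was the only tested gene of the list whose hypoxia arrays both lay below the normoxia arrays in one line and both above them in the other. In DKS-5 it read 22.4 and 24.2 in normoxia and lower, 13.3 and 19.2, in hypoxia. In DKO-3 it read 11.1 and 21.4 in normoxia and higher, 25.5 and 24.8, in hypoxia. The response of DKS-5 minus that of DKO-3 was -0.66 ± 0.35 (limma adjusted p = 1, unadjusted p = 0.0812), so the difference did not pass its own test. The same number is the change of the line difference between the oxygen levels, from 0.30 in normoxia, with both DKS-5 arrays higher, to -0.36 in hypoxia, with both lower. All its signals lie near the filter of 13.8. Among all tested genes, both hypoxia arrays lay below both normoxia arrays for 15.6% in DKS-5 and above them for 25% in DKO-3. The share of all genes with opposite orders in the lines was not counted, so this pattern is not shown to be unusual.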

How the results depend on the processing

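No value of the listed genes or of the second list that passed the threshold changed direction under any alternative run. NDRG1 and the cell type markers were not followed through the alternatives. The SC5D hypoxia line difference held in 16 of 16 settings, its normoxia difference in 15 of 16, INSIG2 over both lines in 13 of 15, MSMO1 between the lines in 13 of 16, SQLE in 9 of 16, INSIG2 in DKS-5 in 9 of 16, INSIG1 over both lines in 7 of 15, LSS in 5 of 15 and INSIG1 between the lines in 5 of 16. With 2 arrays per group and signals near background for MVK, TM7SF2 and FASN, small changes of these genes cannot be shown. The cause of the shifts below was not tested. Listed genes and all genes past the threshold, in that order, numbered 1 and 64 for hypoxia in DKS-5, 0 and 44 in DKO-3, 3 and 152 over both lines, 1 and 324 for the lines in normoxia and 4 and 557 in hypoxia. Without the filter they were 0 and 35, 0 and 7, 1 and 70, 1 and 144, and 2 and 217, over more genes tested. Without scaling they were 0 and 32 in DKS-5, 84 of all genes in DKO-3, 1 listed gene over both lines and 2383 of all genes for the lines in hypoxia. With probe sets averaged, 2 listed genes passed in DKS-5 and 2 for the lines in hypoxia, and the oxygen-step responses differed by 0.22. With the RNA quality covariate they were 14 of all genes in DKO-3, 63 of all genes over both lines, and 1 and 128 for the lines in hypoxia. With only the 4 arrays compared they were 0 and 36 in DKS-5, 68 of all genes in DKO-3 and 357 of all genes for the lines in hypoxia. The oxygen-step contrast without SC5D gave 0.35 and 0.87 between the lines in normoxia and hypoxia. Leaving out 1 array at a time gave 0 to 2 listed and 29 to 294 of all genes in DKS-5, 0 to 1 and 1 to 69 in DKO-3, 0 to 8 and 58 to 760 over both lines, 0 to 2 and 119 to 441 for the lines in normoxia, 1 to 4 and 135 to 761 in hypoxia, and 0 of both for the interaction in every case. The extremes of the counts for hypoxia over both lines came without the first DKO-3 hypoxia array (58) and the first DKS-5 hypoxia array (760, with 8 listed). Arrays with the same number correlated from -0.09 to 0.33 in their deviations from the group means, with 0.33 between the lines in hypoxia and 0.21 in normoxia. The labels name no shared batch or day, so the numbers were not taken as pairs, and whether arrays at one oxygen level were handled together was not tested. With the replicate block, 6 listed and 325 of all genes passed over both lines, MSMO1, SREBF2 and SCD in addition, and 92 of all genes in DKO-3. Values of the listed genes that passed only under an alternative numbered 4 in DKS-5, 1 in DKO-3 and 9 over both lines, and 1 and 6 for the lines in normoxia and hypoxia.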
